A study of Homo sapiens with 4 samples.

Results

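The ZBTB zinc finger transcription factors on the array were described in K562 cells, a human erythroleukemia cell line, after 4 h with AC-1041, a thalidomide analog made by the study. The members were the gene probes whose name starts with ZBTB, plus ZNF295, which is the older name of ZBTB21, and BCL6. The name search found 0 genes by the prefix ZBTB, so that the rule took 2 of the 14272 gene names on the array, ZNF295 and BCL6, with 1 probe each. Some genes now named ZBTB stand on the array under older names, ZNF509, ZFP161 and ZNF238 among them, and are described below outside the rule. ZNF295 and BCL6 had been chosen on the ratios of treated to control cells on these same arrays. Their ratios are therefore given as a description without a test. On each of 4 two-colour arrays, RNA from AC-1041-treated cells and from control cells was measured side by side. Arrays 1 and 2 had the treated RNA in Cy5, and arrays 3 and 4 had it in Cy3. The controls are called untreated in the labels and DMSO-treated in the methods. The labels state no dose, which is given in the methods only. According to the methods 4 samples were taken for each condition, but neither they nor the labels tell which sample lay on which array or whether the cultures were separate, so the spread between arrays may be technical.

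BTB zinc finger proteins are transcription factors that carry a BTB domain at the amino end and zinc fingers at the carboxyl end. The zinc fingers bind DNA, while the BTB domain joins the proteins into dimers and recruits corepressor complexes with histone deacetylases, and in some family members it binds the cullin CUL3. BCL6 is the repressor that germinal centre B cells require, and it is rearranged in B-cell lymphomas. ZBTB21, the product of ZNF295, is a repressor of the same domain plan that is known to bind the related factor ZBTB14. K562 cells are of erythroid and myeloid character, and neither protein is a lineage marker of them.

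The promoters of both genes are shown because the RNA of both was higher in treated cells on every array. The sequences are the 250 bases before each transcription start in RefSeq (GRCh38.p14), written 5′ to 3′ on the strand of the gene, and capitals mark motif matches that lie wholly within them. RefSeq gave 1 start for ZBTB21, with its upstream bases at chr21:42010361-42010610 on the minus strand, and 2 starts for BCL6, at chr3:187745469-187745718 and chr3:187736502-187736751 on the minus strand.
ZBTB21: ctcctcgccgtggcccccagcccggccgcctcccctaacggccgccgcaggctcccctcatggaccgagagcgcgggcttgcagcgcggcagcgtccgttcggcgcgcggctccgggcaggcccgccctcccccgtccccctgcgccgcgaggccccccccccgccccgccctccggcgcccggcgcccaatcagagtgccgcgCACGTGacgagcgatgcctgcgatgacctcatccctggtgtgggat
BCL6 start 1: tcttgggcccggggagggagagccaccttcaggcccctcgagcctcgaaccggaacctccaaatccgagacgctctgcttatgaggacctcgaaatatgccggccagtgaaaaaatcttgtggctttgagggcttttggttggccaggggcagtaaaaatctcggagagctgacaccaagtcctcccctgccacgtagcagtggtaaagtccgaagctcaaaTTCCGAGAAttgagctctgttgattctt
BCL6 start 2: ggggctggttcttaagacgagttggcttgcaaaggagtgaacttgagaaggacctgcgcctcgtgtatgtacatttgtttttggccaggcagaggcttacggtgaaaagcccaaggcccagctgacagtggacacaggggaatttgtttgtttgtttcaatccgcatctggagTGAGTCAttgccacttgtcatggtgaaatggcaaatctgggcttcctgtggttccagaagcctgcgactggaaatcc
The upstream bases of ZBTB21 were 78.4% G and C, against 54.4% and 50.8% at the BCL6 starts. Each window of 300 bases, which also takes in the first bases of the transcript, was searched on both strands for 8 motifs, where N stands for any base, and positions count from 1 at the start and from -1 just before it. The ZBTB21 window held the E-box CACGTG at -46 and the cyclic AMP response element TGACGTCA from -1, running over the start. CACGTG was present in 7.26% and TGACGTCA in 1.85% of the 35116 promoter windows of this length. At BCL6 start 1, the STAT and BCL6 type element TTCNNNGAA was matched at -28, -5, 11 and 37, and the heat shock element GAANNTTC at 32, overlapping the last of these. TTCNNNGAA was present in 7.66% and GAANNTTC in 6.77% of windows. At BCL6 start 2 the AP-1 site TGANTCA was matched at -77, a motif present in 7.71% of windows. The letters TGATGNAAT (CHOP and ATF4 composite element), TGTTTAC (FOXO element) and TGACNNNGC (antioxidant response element) were in none of the 3 windows, and in 0.991%, 3.42% and 13.3% of all windows.

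Each array held 14297 gene probes, of which from 5941 to 9515 per channel were well above background, and no spot was saturated. After the filter on dim probes 8836 genes were tested. The negative control spots varied more on arrays 1 and 2, with an SD from 107 to 221, than on arrays 3 and 4, with an SD from 14.6 to 22.0, so the orientation of the dyes and the quality of the arrays cannot be told apart. The log2 ratios of the probes that passed the filter correlated at 0.81 between arrays 1 and 2 and at 0.94 between arrays 3 and 4. Between arrays of opposite orientation they correlated at -0.29 to -0.12. The standard errors and adjusted p-values below come from a fit with a dye term and so rest on differences within an orientation. As a check of the cells, 9 of the 10 erythroid marker genes on the array stood well above background in control cells on all 4 arrays, against 2 of 5 B-lineage markers, 0 of 4 T-lineage markers and 2 of 4 myeloid markers.

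ZNF295 RNA was higher in treated cells on every array. In bulk RNA, a change in the number of cells that carry a transcript and a change in RNA per cell cannot be told apart. Its probe lay at chr21:42280149-42280208 (hg18, minus strand), a stretch of 60 bases, and no annotation of that build was used here. Arrays 1 to 4 gave log2 ratios of treated to control cells of 1.26, 1.74, 2.71 and 2.78. The ratio was thus larger on each array with the treated RNA in Cy3 than on either array with it in Cy5. The fitted log2 ratio was 2.12 ± 0.75 (SD, n = 4), a 4.35-fold higher level, with single arrays from 2.40-fold to 6.88-fold. Its mean was 1.50 over arrays 1 and 2 and 2.74 over arrays 3 and 4. This difference of 1.25 was larger than the gap between arrays of the same orientation, which was 0.48 for arrays 1 and 2 and 0.08 for arrays 3 and 4.

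The levels of ZNF295 in the separate channels, as normalized log2 intensity, were 12.17, 10.80, 13.49 and 13.29 in treated cells on arrays 1 to 4. In control cells they were 10.91, 9.06, 10.78 and 10.51. The lowest treated value, on array 2, was below the highest control value, on array 1, so the channels overlapped across arrays although the treated level was higher within each of them. Array 2 held the lowest level in both channels. There the control spot was not well above background, while the spot was well above it in both channels of the other arrays. The spot intensity before normalization was 4887, 2494, 11233 and 9944 in treated cells, against 1993, 605, 1570 and 1452 in control cells, over a local background of 60 to 75.

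BCL6 RNA was also higher in treated cells on every array, by a smaller ratio. Its probe of 60 bases lay at chr3:188922335-188922394 (hg18, minus strand). Arrays 1 to 4 gave log2 ratios of 0.69, 0.61, 1.28 and 1.62. As for ZNF295, both arrays with the treated RNA in Cy3 gave larger ratios than both with it in Cy5. The fitted log2 ratio was 1.05 ± 0.48 (SD, n = 4), a 2.07-fold higher level, with single arrays from 1.53-fold to 3.08-fold. The mean was 0.65 over arrays 1 and 2 and 1.45 over arrays 3 and 4.

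In the separate channels the normalized log2 intensity of BCL6 was 10.73, 10.81, 11.17 and 11.50 in treated cells. In control cells it was 10.04, 10.20, 9.89 and 9.88. The 4 treated values lay above all 4 control values. The control values varied less between arrays (SD 0.15, n = 4) than the treated values (SD 0.36, n = 4). Both spreads include the orientation of the dyes and the quality of the arrays. The BCL6 spot was well above background in both channels of all 4 arrays. Neither the BCL6 nor the ZNF295 spot was marked as an outlier on any array.

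Among the 8836 genes tested, ZNF295 had the 7th highest and BCL6 the 110th highest log2 ratio, and 0.0679% and 1.23% of genes lay above them. Of the 7976 genes measured on all arrays, 39, or 0.489%, had a log2 ratio above 1 on every array. ZNF295 was among them and BCL6 was not. A ratio above 0 on every array, which both members had, was found in 16.7% of the genes. At an adjusted p under 0.05 in the limma fit, both members were called higher and 0 lower, where 24.3% of the tested genes were called higher and 13.0% lower. With median centring of the arrays in place of loess, 2358 genes were called higher and 596 lower, against 2150 and 1150. Since the members were chosen on this contrast, nothing is read from their count. Without the dye term, which places the difference between orientations in the error, 0 members and 52 genes in all were called higher. The median log2 ratio was 1.59 over the members and 0.02 over all genes tested. The log2 ratio of ZNF295 exceeded that of BCL6 on each array, by 0.57, 1.12, 1.43 and 1.16, with a mean of 1.07 ± 0.36 (SD, n = 4).

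Other BTB zinc finger genes were on the array under names outside the rule, and their fitted ratios were below that of BCL6, apart from GZF1. Of 10 such genes, 7 were tested, and limma called 5 higher and 1 lower and did not call 1, against 24.3% higher and 13.0% lower among all genes. Their median log2 ratio was 0.35. The call went the same way on every measured array for 1 of the 5 called higher, GZF1, and for the gene called lower, BCL6B. Over all genes this held for 1187 of the 2150 called higher and 585 of the 1150 called lower. Without array 3, and likewise without array 4, 2 of 6 tested genes were called and GZF1 had too few spots to be tested. Calls over all genes fell from 3300 of 8836 to 1677 of 8000 and 1288 of 7986. With the processed signals of Feature Extraction 2 of 7 were called, against 2719 of 8836 genes in all.

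GZF1, a repressor induced by the growth factor GDNF, had log2 ratios of 1.13, 1.64 and 1.89 on arrays 2 to 4, while its spot on array 1 was marked as an outlier and left out. The fitted value was 1.45 ± 0.39 (SD, n = 3; limma, adjusted p = 4.5e-05), between those of ZNF295 and BCL6. As for these genes, the ratio was larger with the treated RNA in Cy3. ZNF509, now named ZBTB49, had -0.53 and -0.51 on arrays 1 and 2 but 2.07 and 2.03 on arrays 3 and 4. Its sign thus differed between the pairs of arrays. The call was lost with the processed signals (limma, adjusted p = 0.054) and with the authors' table of ratios (limma, adjusted p = 0.062). The spot was well above background on 2 arrays in treated and on 1 array in control cells, so that it was kept only through the channel where it was high, and its call higher rests on a control near background. MYNN, which codes for myoneurin, had -0.33, -0.41, 1.11 and 1.04. ZNF131 had -0.35, 0.15, 0.82 and 0.98. Both were called higher while lying lower on at least 1 of arrays 1 and 2, and MYNN lost the call with the processed signals and without array 3 and ZNF131 without array 4.

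ZFP161, now named ZBTB14 and the partner of ZBTB21 mentioned above, ran the other way, with 0.49 and 0.63 on arrays 1 and 2 and -0.16 and -0.11 on arrays 3 and 4. Its fitted log2 ratio was 0.21 (limma, adjusted p = 0.034), a call lost with the processed signals and without array 2, 3 or 4. BCL6B, the close homolog of BCL6, was lower on all arrays, at -0.07, -0.11, -0.56 and -0.24, with a fitted value of -0.25 ± 0.22 (SD, n = 4; limma, adjusted p = 0.031). That call was lost without array 3, at -0.17 (limma, adjusted p = 0.25), without array 4, at -0.33 (limma, adjusted p = 0.064), and with the processed signals, at -0.26 (limma, adjusted p = 0.084). PATZ1 was at -0.10 (limma, adjusted p = 0.25). ZNF238, now named ZBTB18, and HIC1 were too dim to be tested, and the HIC2 spot was marked as an outlier on all arrays.

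**Figure D1:**
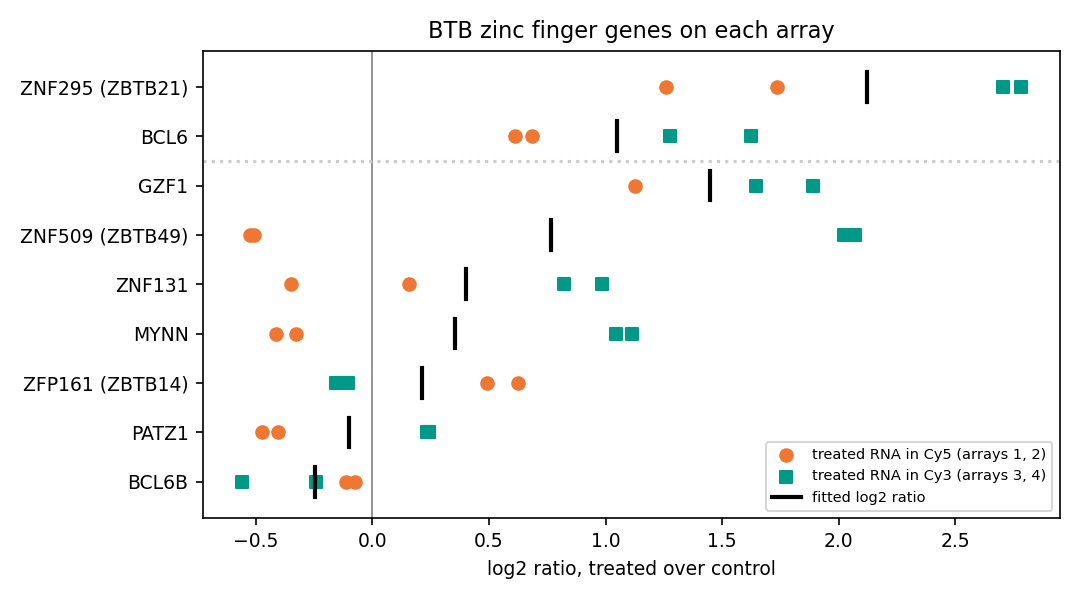
Treated over control as a log2 ratio (horizontal axis) on each array for ZNF295 and BCL6, above the dotted line, and for the 7 other BTB zinc finger genes tested, below it, with circles for arrays 1 and 2, squares for arrays 3 and 4 and a bar at the fitted value. ZNF295, BCL6 and GZF1 lie to the right of 0 on every array measured, whereas ZNF509, MYNN, PATZ1 and, the other way round, ZFP161 lie on opposite sides of 0 in the 2 orientations.

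Zinc finger genes named ZNF or ZSCAN, most of which code for proteins without a BTB domain, were for the most part called higher in treated cells. Of 452 such genes 370 were tested, and 249 (67.3%) were called higher and 20 (5.41%) lower in limma, against 24.3% and 13.0% of all genes. Of the 249, 25 had a control spot well above background on fewer than 2 arrays and were kept only with the help of the treated channel. Over all genes this held for 155 of the 2150 called higher. With such genes left out, 65.5% of this group and 23.2% of all genes were called higher. With both channels required well above background on all arrays, 102 of 171 (59.6%) were higher and 11.1% lower, against 24.0% and 19.2% of all genes. The ratio lay above 0 on every measured array for 129 of the 249, against 1187 of the 2150 genes called higher in all. The median log2 ratio of the 370 was 0.39, with 0.13 on arrays 1 and 2 and 0.65 on arrays 3 and 4. The mean ratio was above 0 in both orientations for 178 of the 370, or 48.1%, against 22.4% of all genes tested. None of the 370 reached the log2 ratio of ZNF295, and 11 exceeded that of BCL6. Without array 4 the number called in either direction was 166 of 361 in place of 269 of 370. Calls over all genes then fell from 3300 of 8836 to 1288 of 7986. Without the dye term, 2 of 371 genes in this group and 56 of all 8921 genes were called.

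The highest of them were ZNF697, at 1.57 ± 0.62 (SD, n = 4; limma, adjusted p = 7e-06), and ZNF433, at 1.57 ± 0.48 (SD, n = 4; limma, adjusted p = 1.3e-05). ZNF697 had 1.12, 0.96, 1.98 and 2.22 on arrays 1 to 4, the order of orientations seen for ZNF295 and BCL6. ZNF627 was the only gene of this group above 1 on every array, with 1.17, 1.50, 1.06 and 1.46, and its ratios did not separate by orientation. The lowest were ZNF22 at -0.63 and ZNF207 at -0.61 (limma, adjusted p = 0.00045 and 0.00027), both below 0 on all 4 arrays.

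**Figure D2:**
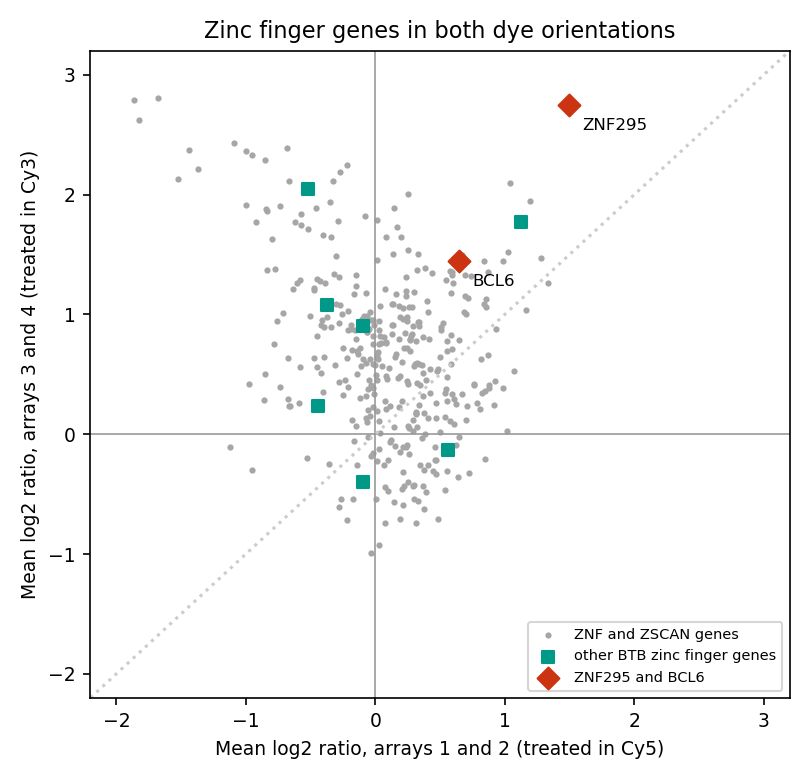
Mean treated over control log2 ratio on arrays 1 and 2 (horizontal axis) and on arrays 3 and 4 (vertical axis) for the 370 ZNF and ZSCAN genes (grey), the 7 other BTB zinc finger genes (squares, GZF1 with array 2 alone on the horizontal axis) and ZNF295 and BCL6 (diamonds), with equal values on the dotted line. Both diamonds lie in the upper right part, above the dotted line, while many grey points with high values on arrays 3 and 4 lie to the left of 0.

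Genes for corepressors and other proteins that BTB zinc finger factors are known to recruit, together with CUL3 and RBX1, were called in both directions. Their median log2 ratio was -0.16. Of 26 genes 23 were tested, 6 (26.1%) were called higher, 8 (34.8%) lower and 9 were not called in limma, against 24.3% higher and 13.0% lower among all genes. The ratio had 1 sign on all measured arrays for 2 of those called higher and 4 of those called lower. Over all genes this held for 1187 of the 2150 called higher and 585 of the 1150 called lower. CUL3, the scaffold of ubiquitin ligases that take BTB proteins as adaptors, was the lowest, with -0.46, -0.62, -0.76 and -0.72 on arrays 1 to 4. Its fitted value was -0.64 ± 0.13 (SD, n = 4; limma, adjusted p = 0.00021), and its spot was well above background on 3 arrays. HDAC7A, a histone deacetylase now named HDAC7, followed at -0.57 (limma, adjusted p = 0.0021), with -0.01 on array 2. The acetyltransferase EP300, which is known to acetylate BCL6, was the highest, with 0.02, 0.22, 0.73 and 1.03 and a fitted value of 0.50 (limma, adjusted p = 0.0015). HDAC4 was at 0.31 (limma, adjusted p = 0.035). Its ratio was 0.16 without array 2, 0.29 without array 3 and 0.33 without array 4, and the call was lost in each case, as it was with the processed signals and with outlier spots kept. The number called in this group was 5 of 21 without array 3 and 4 of 21 without array 4. Over all genes it was 1677 of 8000 and 1288 of 7986.

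BTB genes without zinc fingers, nearly all of the Kelch-like KLHL group that serves as CUL3 adaptors, had a median log2 ratio of 0.14, which was 0.27 without array 1. Of 29 genes 21 were tested, with 9 (42.9%) called higher, 1 (4.76%) lower and 11 not called in limma, against 24.3% and 13.0% of all genes. Of the 9 called higher, 7 were above 0 on every array, against 1187 of the 2150 called higher over all genes. The KLHL24 ratio was 0.96, 0.85, 1.65 and 1.89, with a fitted value of 1.34 (limma, adjusted p = 1.1e-05). KLHL2 was at 1.28 (limma, adjusted p = 5.4e-05), and KLHL25 was above 1 on every array, with 1.01, 1.64, 1.13 and 1.28. These 3 genes exceeded the log2 ratio of BCL6 and none that of ZNF295. Their control spots were well above background on 2 arrays for KLHL24 and KLHL25 and on 3 for KLHL2, so the stricter filter left them out. The gene called lower was ENC1, with -0.94, -1.03, -0.41 and -0.55 and a fitted value of -0.73 (limma, adjusted p = 0.00012). Without array 4, 6 of 21 genes of this group were called, where calls over all genes fell from 3300 of 8836 to 1288 of 7986.

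Genes known as targets of BCL6 or other ZBTB factors were called in both directions, and their median log2 ratio was -0.02, turning to 0.02 without array 1 and to 0.0044 without array 3. Of 22 genes 15 were tested, with 3 (20%) called higher, 3 (20%) lower and 9 not called in limma, near the 24.3% and 13.0% of all genes. None of the 3 called higher was above 0 on all arrays, and all 3 called lower were below 0 on all arrays. Over all genes, 1187 of the 2150 called higher and 585 of the 1150 called lower had 1 sign on every measured array. CD69, an early activation antigen of lymphocytes that BCL6 represses, had -0.01 and -0.05 on arrays 1 and 2 but 2.19 and 1.73 on arrays 3 and 4. Its fitted value was 0.96 (limma, adjusted p = 0.0001). CDKN1B, the cyclin-dependent kinase inhibitor p27, had -0.75, -0.35, 1.78 and 1.57, with a fitted value of 0.57 (limma, adjusted p = 0.0012). Both genes were thus high only on arrays 3 and 4. The related inhibitor CDKN1C had -1.37, -1.08, -0.07 and -0.32, with a fitted value of -0.71 (limma, adjusted p = 0.00029). ID2, an inhibitor of basic helix-loop-helix factors, had -0.36, -0.47, -0.92 and -0.86, with a fitted value of -0.65 (limma, adjusted p = 0.00019).

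**Figure D3:**
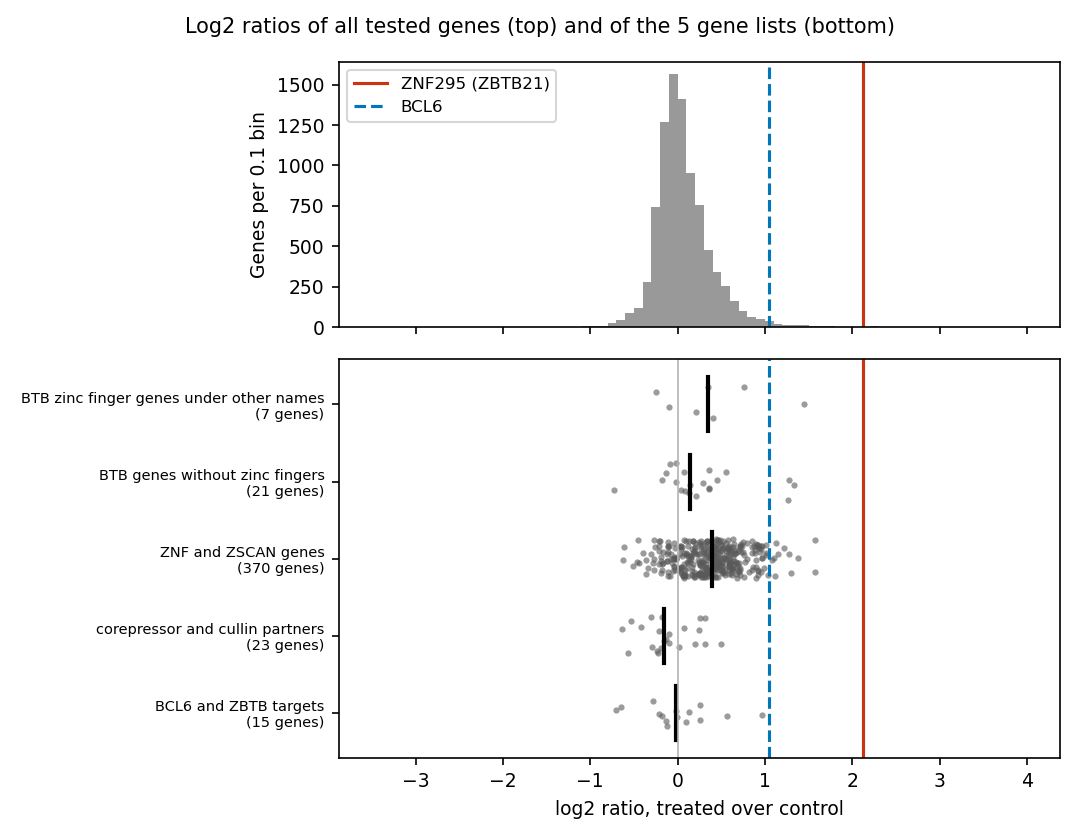
Number of tested genes per bin of treated over control log2 ratio (top; horizontal axis shared) and the log2 ratio of each tested gene of the 5 lists (bottom; points are spread vertically for display, with a bar at each median), with lines at ZNF295 (solid) and BCL6 (dashed). No point of the 5 lists reaches the ZNF295 line, and the ZNF and ZSCAN genes have a median of 0.39, next to 0.35 for the other BTB zinc finger genes.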

How the data were processed

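Gene expression in K562 cells with and without AC-1041 was compared on 4 two-colour Agilent arrays, all mapped to 1 group of ratios. Spot and local background intensity in both channels was extracted by the authors with Feature Extraction 9.5.1.1 and deposited without further normalization. The processed signals of each spot, and the log10 ratios of the series table, were used as alternatives. These 2 gave nearly the same values, with a log2 ratio of 2.25 for ZNF295 in both. The deposited log10 ratio of each spot served to check the series table, and from 99.9% to 100% of gene probes per array lay within 0.001. The submitters' marks of spots well above background and of outlier spots served as filters.

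Background was corrected with normexp (offset 50), arrays were normalized by loess (span 0.3), and ratios were turned to treated over control. Values per channel were further scaled between arrays (Aquantile). Outlier spots, from 1.57% to 8.08% of gene probes per array, were left out. Probes had to be well above background on 2 or more arrays in 1 channel or the other. The 8852 probes that passed were fitted with limma 3.58.1 in R 4.3.3, using terms for treatment and dye, and p-values were adjusted over all of them (Benjamini-Hochberg). The other tables were made in Python 3.11.15. A gene was represented by its tested probe of highest mean log intensity. Of 14297 probes, 12002 were named through RefSeq accessions (GRCh38.p14) and the rest by the files. On simulated data with the spread of these probes, 88% of 200 changes of 1 on the log2 scale were recovered. The simulated noise was independent between arrays and had the spread left after the dye term. The recovery therefore says nothing on differences between arrays of opposite orientation. The exact two-sided sign-flip permutation test over 4 arrays cannot go under p = 0.125 and was not used.

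The members and gene lists were chosen with earlier results of these data known. Named in each list were the 2 genes with the highest and the 2 with the lowest log2 ratio among those called, and genes beyond 1 or -1 on every array. All other BTB zinc finger genes were named too, a choice made after their values were seen. Alternatives were other backgrounds, scalings, filters and thresholds, no dye term, and each array left out. The number of arrays limits the precision.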

Additional observations from a re-analysis of the deposited data

How the results depend on the processing

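The log2 ratio of ZNF295 ranged from 2.00 to 2.25 and that of BCL6 from 0.96 to 1.14 over the other settings of background, scaling, filter and dye term and with each array left out. In pairs of arrays, chosen after seeing the data, ZNF295 was at 1.50 (arrays 1 and 2) and 2.74 (arrays 3 and 4), and BCL6 at 0.65 and 1.45. Both were called higher without any single array. Genes called higher in all then ran from 1005 of 7986 without array 4 to 2584 of 8797 without array 1. Since the members were chosen on these ratios, nothing is read from those calls. With both channels required well above background on all arrays, 5579 genes were tested and 2409 were called. ZNF295 was not tested under this filter, and 1 member, BCL6, was called. In the lists, 2 of 3 other BTB zinc finger genes, 5 of 11 BTB genes without zinc fingers and 121 of 171 ZNF and ZSCAN genes were called. Without the dye term, 0 members, 0 other BTB zinc finger genes, 0 partner genes, 1 BTB gene without zinc fingers, 0 target genes and 2 ZNF and ZSCAN genes were called. Of all 8921 genes tested in that fit, 56 were called. The processed signals gave 2 other BTB zinc finger and 9 partner genes, the authors' table of ratios gave 2 other BTB zinc finger genes, and an adjusted p under 0.01 gave 5 partner genes. Of all 8836 genes, 2719 were called with the processed signals and 2681 with the authors' ratios. For the threshold of 0.01 the count over all genes is not given here. With each array left out in turn, the other BTB zinc finger genes called ran from 2 of 6 to 6 of 7. The partner genes called ran from 4 of 21 to 14 of 23 and the BTB genes without zinc fingers from 6 to 12 of 21. For the ZNF and ZSCAN genes the range was 166 of 361 to 294 of 370. Calls over all genes ran alongside from 1288 of 7986 without array 4 to 4051 of 8797 without array 1. Apart from the filter and the dye term, whose construction changes which genes or which error enter, the cause was not tested. Under these settings, the pairs of arrays apart, no fitted direction of a named gene reversed; on arrays 1 and 2 alone several named genes, ZNF509 and CDKN1B among them, lay on the other side of 0. Averaging several probes of a member was not run, as each has 1. The background of arrays 1 and 2 limits what can be read for dim spots.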
